A study of Mus musculus with 1 sample.

Results

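The 9 genes described here encode the subunits of Polycomb repressive complex 2 (PRC2), and they were picked by symbol from the 32285 genes of the deposited count matrix. Of the 9, 6 encode core subunits (Ezh2, Ezh1, Eed, Suz12, Rbbp4 and Rbbp7) and 3 encode accessory subunits (Jarid2, Mtf2 and Phf19). They were measured in 1 library of single-cell RNA from gastric organoids of the mouse, which are cultures of stomach epithelium grown as hollow structures in a gel. The genotype of the sample was wild type, it received no treatment, and the cultures were taken 7 days after seeding and made into single cells with trypsin-EDTA. The series concerns E-cadherin loss in diffuse-type gastric cancer, and only the wild type sample was analysed. Levels were counted as unique molecular identifiers (UMIs), which tag single captured transcripts, in the 1892 of 1991 barcodes that had at least 500 detected genes and at most 20% mitochondrial UMIs.

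PRC2 places methyl groups on lysine 27 of histone H3, a mark of silenced developmental genes. Ezh2 and Ezh1 are alternative catalytic subunits. Eed reads the methyl mark and Suz12 is the scaffold on which the complex is built. Rbbp4 and Rbbp7 are closely related histone-binding proteins that also serve in chromatin assembly and in deacetylase complexes. The accessory subunits direct the core to chromatin: Jarid2 is a DNA-binding cofactor, and Mtf2 and Phf19 are Polycomb-like proteins that bind CpG-rich DNA. In many tissues Ezh2 is known as the form of dividing cells and Ezh1 as the form of resting and differentiated cells.

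The kept cells held 20118334 gene UMIs, with a median of 8512.5 UMIs and 2220 genes per cell. The labels give epithelial cells, and of the epithelial genes Krt18 had a UMI in 99.6% of cells and Epcam in 96.6%. Of 11 genes of non-epithelial cells, 3 had no UMI, 7 had 1 to 5 UMIs, and Cd68 had 196 UMIs in 8.56% of cells. There was no replicate of the 1 library, so no difference between groups of cells could be tested, and the 95% intervals below speak for counting error alone. One cluster of 62 cells, called cluster 7 below, stood apart from the rest: 33 of its cells (53.2%) had a UMI of a Y-linked gene against 17 of the other 1830 (0.929%), and Xist had a UMI in 27.4% of its cells against 78.4%. It held 5.03% of gene UMIs but 12.8% of Ezh2 UMIs, so results that rest on it are given with and without it.

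Core subunit transcripts outnumbered accessory ones, and 3 of the core genes stood above all the others. Levels are UMIs per 1000000 gene UMIs (CPM) summed over the kept cells. They were not divided by gene length, because a 3′ library counts a transcript once whatever its length, and differences in capture between genes were not tested. Rbbp4 had 83.5 CPM (79.5 to 87.5) and was seen in 50.6% of cells. Rbbp7 had 75.9 CPM (72.1 to 79.8) and was seen in 47.0% of cells. How reads that fit both of these related genes were assigned is not given in the sources used here. Suz12, the scaffold, had 68.5 CPM (65.0 to 72.3) and was seen in 43.9% of cells. These 3 genes lay above a gap, since Suz12 was 2.18 times (1.98 to 2.40) as high as the next gene, Ezh1.

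The catalytic genes and Eed came next. Ezh1 had 31.4 CPM (29.0 to 34.0), Eed 26.9 CPM (24.7 to 29.3) and Ezh2 26.4 CPM (24.2 to 28.7). The share of cells with a UMI was 25.9% for Ezh1, 24.0% for Eed and 21.8% for Ezh2. Eed and Ezh2 were the only neighbours in the order whose ratio had an interval that held 1 (1.02, 0.904 to 1.15). Suz12 was counted 2.54 times (2.30 to 2.82) as often as Eed, although the proteins sit in the same core. Both catalytic genes together came to 2.15 times (1.94 to 2.38) the level of Eed.

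Accessory genes were the lowest. Jarid2 had 20.8 CPM (18.8 to 22.9) and was seen in 18.97% of cells, and Mtf2 had 14.6 CPM (12.9 to 16.3) and was seen in 13.1%. Jarid2 was 1.43 times (1.23 to 1.66) as high as Mtf2. Phf19, which shares its domains with Mtf2, was nearly undetected, with 3 UMIs in 3 cells, which is 0.149 CPM (0.0308 to 0.436). All 3 of those cells had high counts of both S phase and G2/M genes, as defined below, and 1 of them was in cluster 7. Summed, the 6 core genes had 8.81 times (8.15 to 9.53) the level of the 3 accessory genes. The ratio was 4.32 (3.98 to 4.69) when Rbbp4 and Rbbp7, which have other roles, were left out. These sums were not divided by the number of genes. Singly, the lowest core gene, Ezh2, was 1.27 times (1.12 to 1.45) as high as Jarid2, the highest accessory gene of the members.

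**Figure D1:**
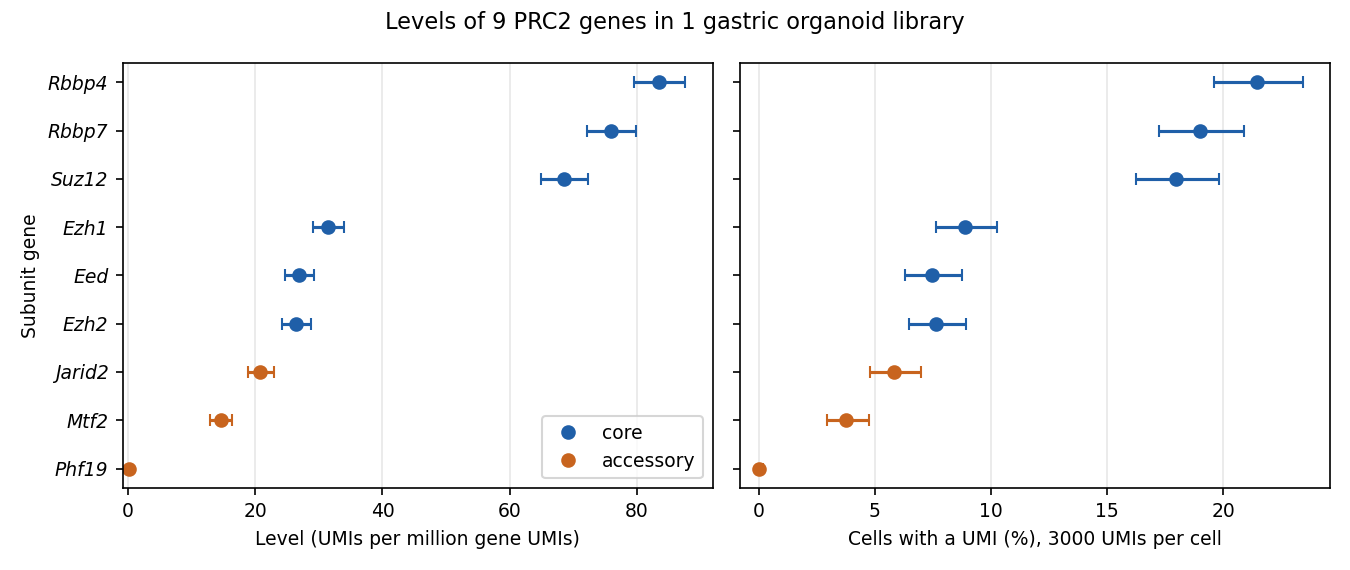
Level of each PRC2 gene in CPM (left) and percent of cells with a UMI after each cell was thinned to 3000 UMIs (right), with 95% intervals for counting error; blue marks core and orange accessory genes. Rbbp4, Rbbp7 and Suz12 sit apart at 68.5 CPM and above, while Phf19 lies at 0.149 CPM.

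The accessory group depended on which genes were counted in it. Other PRC2 accessory genes were as abundant as the ones above: Lcorl had 30.0 CPM, Lcor 23.5 CPM, Aebp2 (a partner of Jarid2 in one form of the complex) 19.4 CPM and Epop 12.7 CPM. The third Polycomb-like gene, Phf1, had 4.27 CPM. AU022751, the mouse gene for the PRC2 inhibitor Ezhip, had no UMI in the 1892 cells, and the upper bound of its exact interval was 0.195% of cells with a UMI. With Aebp2, Phf1, Epop, Lcor and Lcorl added, the summed core genes had 2.49 times (2.38 to 2.61) the summed accessory level. A 3′ count does not tell transcript forms of a gene apart. How much of the Lcor and Lcorl counts stands for PRC2 subunits was not tested. Among genes of the opposing and the partner machinery, the H3K27 demethylase genes Kdm6b (33.5 CPM) and Kdm6a (29.4 CPM) lay near the level of Ezh1. The highest of 19 genes for Polycomb repressive complex 1 (PRC1), which binds the mark that PRC2 makes, was Cbx6 with 56.3 CPM.

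Genes that PRC2 is known to silence were read out beside the members. Of 39 Hox cluster genes, which specify body position and are classic PRC2 targets, 38 had no UMI in any kept cell and Hoxa13 had 4. Cdkn2a, whose locus encodes the cell cycle inhibitors p16 and Arf and is silenced by PRC2 in many dividing cells, had 499 CPM (489 to 509) and was seen in 89.9% of cells. Its neighbour Cdkn2b had 49.8 CPM. A 3′ count does not tell the p16 and Arf transcripts apart. Among the clusters described below, from the lowest to the highest, Cdkn2a had 241 CPM in cluster 7, 315 in cluster 2, 400.4 in cluster 3, 509.9 in cluster 1, 632 in cluster 6, 654 in cluster 4 and 718 in cluster 5. In the same order of clusters Ezh2 had 67.1, 17.3, 24.99, 23.7, 50.3, 16.9 and 23.8 CPM.

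Ezh2 and Ezh1 were mostly seen in different cells, at a depth where few cells can show both. Of 1892 cells, 147 (7.77%) had a UMI of both, 265 of Ezh2 alone, 343 of Ezh1 alone and 1137 of neither. After each cell was thinned to 3000 UMIs, which kept 1835 cells and left out 57 shallower ones, 9 cells had both, 131 Ezh2 alone and 154 Ezh1 alone. Thinned cells with an Ezh2 UMI had 32.3 CPM of Ezh1 and those without had 31.2 CPM, a ratio of 1.03 (0.767 to 1.37), so the genes neither went together nor excluded each other beyond counting error. At least 1 of the 9 members was seen in 88.7% of cells at full depth and in 61.7% after thinning.

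Over all cells Ezh2 was counted 0.840 times (0.747 to 0.944) as often as Ezh1. The matrix also holds multiplexing tags, which mark the cells of separate suspensions before pooling, and 2 of 12 tags led every barcode. The labels do not say what the tags stand for. In the 1062 cells led by the tag CMO301 the ratio of Ezh2 to Ezh1 was 0.972 (0.830 to 1.14), and in the 830 cells led by CMO302 it was 0.699 (0.585 to 0.836). Cluster 7 held 36 cells of the first tag and 26 of the second. Without it the ratios were 0.860 (0.728 to 1.02) and 0.652 (0.541 to 0.784), and 0.759 (0.671 to 0.858) over both. Ezh1 was therefore level with or above Ezh2 in both tag groups.

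Ezh2 is at chr6:47530139-47595341 and Ezh1 at chr11:101191115-101226463, both on the minus strand of GRCm38 in GENCODE M21. Suz12 is at chr11:79993106-80034123 on the plus strand and Mtf2 at chr5:108065674-108109004 on the plus strand. Of the others, Eed is at chr7:89954654-89980983, Rbbp4 at chr4:129307100-129335370 and Phf19 at chr2:34893757-34914026, all on the minus strand, and Jarid2 is at chr13:44729474-44921643 and Rbbp7 at chrX:162760402-162779092, both on the plus strand. Stretches at the RefSeq starts of Ezh2, Suz12, Mtf2 and Ezh1 are shown because they differ in letters that cell cycle factors bind. The genes also differ below in their link to cycling. Each stretch runs from 250 bases before to 30 after the start annotated in RefSeq on GRCm38.p6, 5′ to 3′ on the gene's strand. The RefSeq starts of Ezh2 and Jarid2 lie inside the GENCODE spans given above, and so do their whole windows. Capitals mark a match to one of 4 E2F words, TTTCCCGC, TTTCGCGC, TTTGCCGC and TTTGGCGC, searched on both strands of 300 bases (to 50 after the start). E2F factors drive genes of S phase entry.
Ezh2 (chr6:47595001-47595280, minus strand): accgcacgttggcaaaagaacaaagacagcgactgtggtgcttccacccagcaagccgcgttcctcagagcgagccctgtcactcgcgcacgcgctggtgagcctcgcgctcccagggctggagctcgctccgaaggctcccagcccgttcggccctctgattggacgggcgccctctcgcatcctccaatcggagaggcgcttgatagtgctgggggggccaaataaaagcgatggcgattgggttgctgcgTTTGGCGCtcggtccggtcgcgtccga
Suz12 (chr11:79992856-79993135, plus strand): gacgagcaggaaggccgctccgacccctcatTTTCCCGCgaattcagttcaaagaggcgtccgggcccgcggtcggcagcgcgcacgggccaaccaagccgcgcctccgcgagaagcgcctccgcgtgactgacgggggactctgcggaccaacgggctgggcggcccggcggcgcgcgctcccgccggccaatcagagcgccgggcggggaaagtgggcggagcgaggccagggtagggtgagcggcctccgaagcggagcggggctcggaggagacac
Mtf2, first of 2 annotated starts (chr5:108065424-108065703, plus strand): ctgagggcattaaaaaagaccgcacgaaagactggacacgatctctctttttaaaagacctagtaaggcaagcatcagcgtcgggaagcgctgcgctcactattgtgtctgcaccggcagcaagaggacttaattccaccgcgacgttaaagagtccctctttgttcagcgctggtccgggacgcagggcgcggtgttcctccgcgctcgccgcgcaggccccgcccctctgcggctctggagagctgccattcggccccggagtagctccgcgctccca
Ezh1 (chr11:101226434-101226713, minus strand): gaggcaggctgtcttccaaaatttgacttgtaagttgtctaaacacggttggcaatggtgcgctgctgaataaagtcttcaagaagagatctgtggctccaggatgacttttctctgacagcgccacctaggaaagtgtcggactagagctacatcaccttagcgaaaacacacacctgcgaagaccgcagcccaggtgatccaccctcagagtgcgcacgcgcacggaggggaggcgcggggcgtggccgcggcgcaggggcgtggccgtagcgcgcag

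Ezh2 had TTTGGCGC 4 bases after its RefSeq start and Suz12 had TTTCCCGC 219 bases before its own. Phf19 had the same letters as Suz12 on the other strand, 208 bases before its start. No E2F word was found in the windows of Ezh1, Eed, Rbbp4, Rbbp7, Jarid2 or Mtf2, which says only that these letters are not there. Of all 32851 RefSeq windows of this length, 2.26% held such a word. Counted by gene with any matching window, it was 704 of 27025 genes, against 12 of 31 S phase genes (38.7%) and 3 of 47 G2/M genes (6.38%). The letters TTTGAA, the CHR element that mitotic genes often carry, were found in Eed, in Suz12 and in the second window of Mtf2, and in none of these did they overlap an E2F word. They are common, with 17.9% of all windows, 20.2% of all genes and 33 of 47 G2/M genes (70.2%) holding them. A match is a description and not a bound site.

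Ezh2 and Mtf2 were higher in cells with many S phase transcripts, and the interval of Ezh1 held 1. Cells were ranked by how many of 3000 thinned UMIs came from a list of S phase genes, which holds no member. The 731 cells with at least 2 such UMIs were set against the 523 with none, and a gene was called where the ratio of CPM was at least 1.5 or at most its inverse. Ezh2 had 34.3 CPM in the S-high and 19.5 CPM in the S-low cells, a ratio of 1.76 (1.40 to 2.22). Mtf2 had 18.3 and 9.22 CPM, a ratio of 1.98 (1.43 to 2.78). These 2 of the 8 members with at least 100 UMIs were called higher, beside 5.47% of all 8653 genes at that minimum, and no member was called lower, beside 0.555%. Ezh2 and Mtf2 thus stood with the minority of genes that differed by this much between these cells.

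The other members differed less. Rbbp7 had a ratio of 1.36 (1.20 to 1.54), Suz12 1.21 (1.06 to 1.39) and Rbbp4 1.20 (1.06 to 1.35), and none reached the fold. Intervals held 1 for Ezh1 (1.10, 0.902 to 1.35), Eed (1.06, 0.854 to 1.32) and Jarid2 (0.918, 0.722 to 1.17). The median ratio over the 8 members was 1.20, against 1.07 over all genes.

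A list of G2/M genes gave a similar order. In the 622 cells with at least 5 such UMIs against the 595 with at most 2, the level of Ezh2 was 35.5 against 20.5 CPM, a ratio of 1.73 (1.40 to 2.16), and that of Mtf2 was 18.1 against 10.1 CPM, a ratio of 1.79 (1.32 to 2.46). Again 2 of 8 members were called higher, beside 8.01% of all genes, and none lower, beside 0.717%. Rbbp7 came next at 1.47 (1.30 to 1.66), followed by Rbbp4 at 1.22 (1.09 to 1.38). Ezh1 pointed the other way, at 0.837 (0.684 to 1.02), with an interval that held 1. Within the G2/M-high cells Ezh2 was 1.30 times (1.07 to 1.58) the level of Ezh1, and within the G2/M-low cells 0.628 times (0.5004 to 0.786), so the order of the catalytic genes was turned. Without cluster 7 these ratios were 1.03 (0.833 to 1.27) and 0.627.

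**Figure D2:**
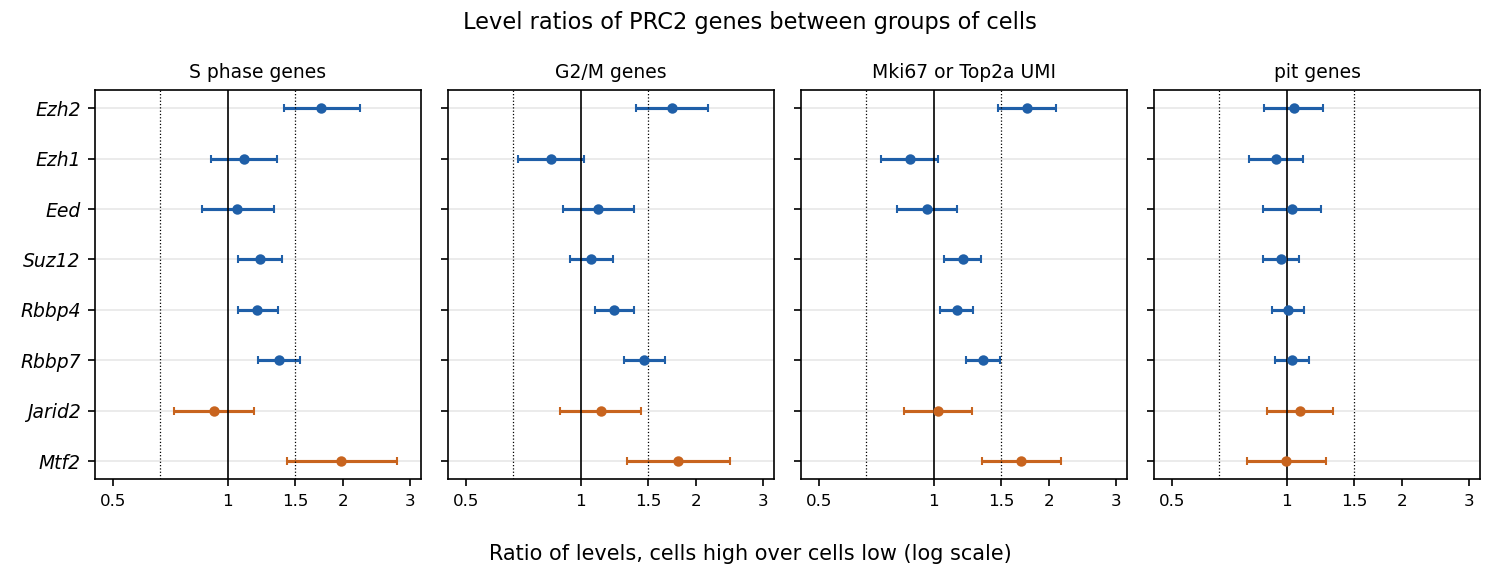
Ratio of levels (log axis) of 8 PRC2 genes between cells high and low for each gene list, or with and without a Mki67 or Top2a UMI; bars are 95% intervals for counting error, dotted lines mark 1.5-fold, and blue is core and orange accessory. Ezh2 and Mtf2 lie right of the dotted line in the first 3 panels, where Ezh1 is between 0.837 and 1.10, and all 8 lie near 1 for pit genes.

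Genes of differentiated gastric cells also differed in the G2/M comparison. In the G2/M-high cells 4 of 6 pit genes (median ratio 4.12) and both measured neck genes (3.38) were called higher, and without cluster 7 no pit gene (1.02) and 1 neck gene, Gkn3 (1.73 times, 1.10 to 2.77), were. Between S-high and S-low cells 1 pit gene was called higher, 2 were called lower and no neck gene was called. In the library 1 cell held 39.5% of Tff1 UMIs and 1 cell 24.8% of Gkn1 UMIs, so such medians can rest on few cells. The part of these genes in the member ratios was not tested.

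Part of the differences of Ezh2 and Mtf2 lay in cluster 7, which made up 6.16% of the S-high and 1.72% of the S-low cells, and 7.40% of the G2/M-high and 0.840% of the G2/M-low cells. Median depths were close, at 9336 against 8384 UMIs per cell for S phase genes and 8987 against 8295 for G2/M genes, and their part in the ratios was not tested. Without cluster 7 the Ezh2 ratio was 1.47 (1.16 to 1.87) for S phase genes and 1.46 (1.16 to 1.84) for G2/M genes, both just under the fold that counts as called. Mtf2 was the 1 member still called, at 1.81 (1.30 to 2.55) and 1.67 (1.21 to 2.31), beside 4.62% and 6.03% of all genes. Rbbp7 was 1.26 (1.10 to 1.43) and 1.32 (1.16 to 1.51). The tags also differed: the Ezh2 ratio for S phase genes was 2.11 (1.56 to 2.89) in the cells of CMO301 and 1.36 (0.962 to 1.95) in those of CMO302, and for G2/M genes it was 1.82 and 1.58. For Mtf2 the S phase values were 2.44 and 1.51, and the G2/M values 2.19 and 1.33, with intervals that held 1 in the cells of CMO302. Thinning to 2000 UMIs also took both genes under the fold for S phase genes, at 1.23 (1.03 to 1.48) for Ezh2 and 1.36 (1.07 to 1.74) for Mtf2, and it turned Ezh1 to 0.833 (0.710 to 0.977). For G2/M genes a split at the median gave 1.41 (1.18 to 1.68) for Ezh2.

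The higher level of Ezh2 was found in cells with many S phase and many G2/M transcripts together, and not in cells with only one kind. Of the thinned cells, 335 were high for both lists, 396 for S phase genes only, 287 for G2/M genes only and 817 for neither. Ezh2 had 47.8 CPM (41.3 to 55.0) in the cells high for both, against 21.4 CPM (17.2 to 26.3), 19.3 CPM (14.7 to 24.9) and 21.3 CPM (18.3 to 24.6) in the other classes in that order. Mtf2 followed the same pattern, with 23.4 CPM (18.9 to 28.6) against 13.3, 11.1 and 12.3 CPM. Rbbp7 did so too, with 112 CPM (102 to 123) against 73.6, 70.1 and 62.6 CPM. For all 3 genes the interval of the class high for both lay above those of the other 3 classes.

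Ezh1 was lowest, at 27.1 CPM (22.3 to 32.7), in the cells high for both, next to 27.5 CPM (21.9 to 34.1) in those high for G2/M genes only, and highest, at 37.2 CPM (31.6 to 43.5), in those high for S phase genes only. Eed stayed between 25.9 and 29.1 CPM and Jarid2 between 20.01 and 24.9 CPM, with overlapping intervals in all 4 classes. Rbbp4 had 101 CPM (91.2 to 111) in the cells high for both against 76.0 CPM (70.4 to 82.0) in those high for neither, and Suz12 had 82.1 CPM (73.5 to 91.5) against 62.9 CPM (57.7 to 68.3). The ratio of Ezh2 to Ezh1 was 1.76 (1.39 to 2.25) in the cells high for both, and between 0.577 and 0.702 in the rest. Without cluster 7, Ezh2 had 38.7 CPM (32.2 to 46.0) in the cells high for both and the ratio was 1.32 (1.01 to 1.74). Rbbp7 then had 99.96 CPM (89.5 to 111) and Mtf2 21.7 CPM (17.0 to 27.4), and the interval of Mtf2 overlapped that of the class high for S phase genes only.

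**Figure D3:**
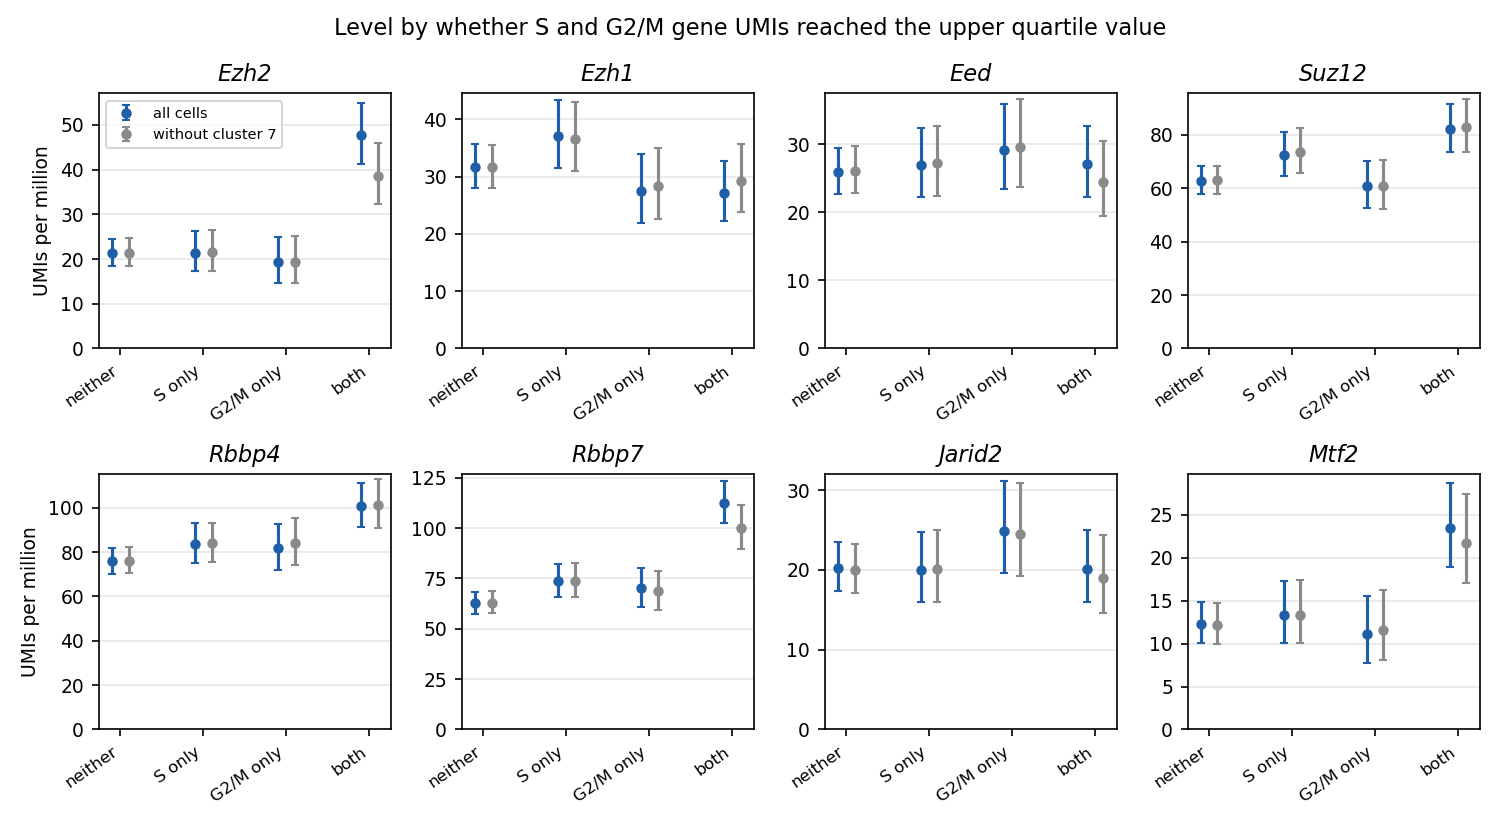
Level in CPM of 8 PRC2 genes in cells whose UMIs of S phase genes, G2/M genes, both or neither reached the upper quartile value, with 95% intervals for counting error; blue is all cells and grey leaves out cluster 7. Ezh2, Mtf2 and Rbbp7 stand out in the class high for both, Ezh2 at 47.8 CPM, while Eed and Jarid2 are level.

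Other groupings of cycling cells called Ezh2 each time over all cells, and Mtf2 or Rbbp7 in some of them. Without cluster 7 part of these calls was lost. The groupings are not separate evidence, since Mki67 and Top2a are in the G2/M list. Phases were also called from the same S phase and G2/M lists. In the 521 cells with a UMI of Mki67 or Top2a, which are markers of proliferation, Ezh2 was 1.75 times (1.47 to 2.08) and Mtf2 1.70 times (1.34 to 2.15) as high as in the 1371 cells with none, and these 2 of 8 members were called higher, beside 5.43% of all genes, with none lower, beside 0.508%. Without cluster 7 Ezh2 was at 1.49 (1.23 to 1.80), under the fold, and Mtf2 at 1.57 (1.22 to 2.01), called beside 4.33% of all genes. The marker-positive cells were deeper, with a median of 11661 UMIs against 7780. After thinning, Ezh2 had a UMI in 12.1% (8.34 to 16.7) of marker-positive cells against 6.91% (5.71 to 8.27) of the others, and without cluster 7 in 9.17% (5.77 to 13.7) against 6.86% (5.65 to 8.24), with overlapping intervals. For Mtf2 the thinned shares were 4.28% (2.16 to 7.53) and 3.68% (2.80 to 4.73). At 11 and 58 cells they could not show a difference. Rbbp4 had 28.4% (23.0 to 34.3) against 20.3% (18.4 to 22.4), and Rbbp7 26.1% (20.8 to 31.9) against 17.9% (16.0 to 19.9). Without cluster 7 Rbbp4 stayed apart, at 28.8% (23.0 to 35.2) against 20.1% (18.2 to 22.2), and the intervals of Rbbp7 overlapped. For Ezh1, Eed, Suz12 and Jarid2 the intervals overlapped over all cells. Cells called in G2/M phase had 49.0 CPM of Ezh2 against 21.4 CPM in cells called in G1, a ratio of 2.29 (1.83 to 2.84), and Mtf2 had a ratio of 2.23 (1.65 to 2.97). Rbbp7 was the third member called in that comparison, at 1.60 (1.39 to 1.84), beside 11.6% of all genes, and Ezh1 had 0.693 (0.512 to 0.921), short of the fold. No member was called lower there, beside 4.20% of all genes. Cluster 7 made up 14.3% of the cells called in G2/M, 5.28% of those called in S and 1.58% of those called in G1. Without it Ezh2 was at 1.96 (1.51 to 2.52) and Mtf2 at 2.29 (1.65 to 3.12) in G2/M cells against G1, both still called, beside 10.1% of all genes, and Rbbp7 fell short of the fold at 1.35 (1.14 to 1.59). Here 4 of 6 pit genes were called lower and 1 higher (median ratio 0.484). Without cluster 7, 3 were lower and none higher (0.675). The direction was opposite to that of the pit genes of the G2/M list over all cells. Both can rest on the few cells that held most Tff1 and Gkn1 UMIs. Median depths were 11270 UMIs in G2/M cells, 7037 in S cells and 8606.5 in G1 cells, and their part was not tested. In cells called in S phase against G1, Ezh2 was the 1 member called, at 1.77 (1.38 to 2.25), beside 4.43% of all genes higher and 4.89% lower, and Mtf2 had 1.42 (0.977 to 2.01). Without cluster 7 no member was called higher in S cells, beside 3.06% of all genes, and Ezh2 had 1.31 (0.969 to 1.75), with an interval that held 1.

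Seen from the cells that showed each catalytic gene, many G2/M genes were higher with Ezh2 and many were lower with Ezh1, while of S phase genes 7 of 28 were called lower with Ezh1, and 3 without cluster 7. In the 140 thinned cells with an Ezh2 UMI, 33 of 42 G2/M genes and 16 of 28 S phase genes were at least 1.5 times as high as in the 1695 cells without, beside 6.04% of all genes. Birc5, a survival factor of dividing cells, had 59.7 against 22.5 CPM (2.65 times, 2.11 to 3.31), and Cdk1, the mitotic kinase, had 60.9 against 23.1 CPM (2.64 times, 2.11 to 3.29). The replication genes Clspn (2.63 times, 1.63 to 4.11) and Rrm2 (2.46 times, 1.51 to 3.85) were highest among S phase genes. The median ratio was 1.81 over G2/M genes and 1.56 over S phase genes, against 1.05 over all genes.

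In the 163 thinned cells with an Ezh1 UMI, no G2/M gene was called higher, beside 2.91% of all genes, and 24 of 42 were called lower, beside 5.40%, with a median ratio of 0.596. The mitotic spindle gene Ckap2 had 1.76 against 8.91 CPM (0.197 times, 0.0402 to 0.587), from 3 UMIs in the cells with Ezh1. Tacc3, a spindle stabilising factor, had 4.10 against 13.9 CPM (0.295 times, 0.118 to 0.617), and without cluster 7 it was at 0.299. Of 28 S phase genes 7 were called lower, among them the replication licensing genes Mcm4 (0.466 times) and Mcm6 (0.467 times). Median depths before thinning were 10129 UMIs in cells with Ezh2 and 9109 in cells with Ezh1, against 8600 and 8699.5 in their comparison cells.

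These counts were smaller without cluster 7, which held 9.29% of the thinned cells with Ezh2 and 3.07% of those with Ezh1. Of 42 G2/M genes 14 were then called higher with Ezh2, beside 4.61% of all genes, at a median ratio of 1.37, and 18 were called lower with Ezh1, beside 5.21%, at a median of 0.685. Cdk1 was 1.99 times (1.49 to 2.62) as high in cells with an Ezh2 UMI and Birc5 1.96 times (1.43 to 2.65). Of S phase genes 7 were called higher with Ezh2, and with Ezh1 3 were called lower and 1 higher, beside 3.17% of all genes higher. Clspn was then at 2.01 (0.995 to 3.73) and Rrm2 at 1.13 (0.439 to 2.44), so the value of Rrm2 rested on cluster 7. Both comparison groups share the cells in which neither gene was seen, and the groups with a UMI were not compared with each other.

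Across single cells, the genes most like Ezh2 were cell cycle genes, but every correlation was weak. Pearson's r of normalised log counts over 1892 cells was highest for Smc2 (0.199), a condensin subunit, followed by Birc5 (0.197), the linker histone gene Hist1h1b (0.197), Pclaf (0.191), Spc25 (0.181), Hist1h2ae (0.179), Esco2 (0.177), Top2a (0.171), Hist1h2ap (0.160) and Asf1b (0.160). Without cluster 7 these values lay between 0.0972 and 0.152. All cells come from 1 library and share its depth range, and in counts this sparse such values are no finding. For Mtf2 the highest were Birc5 (0.149), Pde4d (0.137) and Mki67 (0.136), and for Rbbp7 Ptma (0.162), Hnrnpab (0.158) and Mki67 (0.154). Ezh1 had its highest with Alkbh5 (0.120), Papss1 (0.110) and Dnajc3 (0.106), and Eed with Gm20536 (0.108), Akr1b10 (0.103) and Btg3 (0.101). Suz12 was nearest to Rpl23a (0.170) and Zfp106 (0.151), Rbbp4 to Ywhaz (0.145), Ahnak (0.139) and Ptbp3 (0.135), and Jarid2 to the nuclear RNAs Malat1 (0.128) and Neat1 (0.126) and to Nhlrc2 (0.126). No pair of members had an r above 0.0817, the value for Suz12 and Jarid2.

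Among 7 clusters made without the members and without the genes of the cell cycle lists, Ezh2 was high in 2 and Ezh1 low in another. Cluster 6 (127 cells, led by Aspm, Knl1 and Dlgap5) was proliferating-like, with Aurka and Ccnb1 among its 10 leading genes. Clusters 1 to 5 were led by Aox3, Cbr2 and Scgb3a1, by Ly6m, 2610528A11Rik and Ndrg1, by Atg9b, Mndal and Peg13, by Pcolce, 2210011C24Rik and Hspb1, and by the chemokine genes Cxcl2, Cxcl5 and Cxcl1. Cluster 7 was led by Cyba, Reg3g and Gm3776, and the gastric genes Tff1, Gkn3 and Pgc were among its 10 leading genes. None of these 6 was named as a cell type. The clusters differed in depth, from a median of 6661 UMIs in cluster 4 to 14365.5 in cluster 7.

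Ezh2 had 50.3 CPM (39.9 to 62.5) in cluster 6 and 67.1 CPM (52.1 to 85.1) in cluster 7, against 16.9 to 24.99 CPM in clusters 1 to 5. Cluster 6 was 2.30 times (1.79 to 2.93) clusters 1 to 5 for Ezh2 and 2.43 times (1.74 to 3.32) for Mtf2, and these 2 of 8 members were called higher, beside 11.8% of all genes, with none lower, beside 6.58%. Rbbp7 was 1.38 times (1.16 to 1.63) as high there, and Jarid2 0.679 times (0.425 to 1.03). The share of thinned cells with an Ezh2 UMI gave the same order, at 13.7% in cluster 6 and 21.3% in cluster 7 against 4.07% to 8.68% elsewhere. Cluster 7 also had the highest Rbbp7, a gene on the X chromosome, at 140 CPM (118 to 165), against 62.9 to 96.8 CPM in the other clusters. Ezh2 (2.77 times, 2.12 to 3.58), Rbbp7 (1.93 times, 1.62 to 2.30) and Mtf2 (1.76 times, 1.12 to 2.66) were called higher in cluster 7 than in the other clusters together, beside 20.9% of all genes, with no member called lower, beside 17.1%. Cluster 7 was rich both in cell cycle and in gastric lineage transcripts: 25 of 28 S phase genes (median ratio 3.03), 40 of 42 G2/M genes (3.81), 5 of 6 pit genes (16.1) and both measured neck genes (26.2) were called higher there, and 73.8% of its thinned cells were S-high and 75.4% G2/M-high. These ratios are of summed counts, and 1 cell of the library held 39.5% of Tff1 UMIs. How few cells carry the pit and neck ratios of cluster 7 was not tested. The part of these transcripts in the member levels was not tested. Only 1 of its 61 thinned cells had an Mtf2 UMI (1.64%, 0.0415 to 8.80), which could show neither a higher nor a lower share than the 2.75% to 7.26% of the other clusters.

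Ezh1 was lowest in cluster 4, with 14.8 CPM (9.92 to 21.3), and highest in cluster 2, with 40.4 CPM (34.3 to 47.3). Cluster 4 was also lowest for Suz12 (41.4 CPM, 32.9 to 51.4), Jarid2 (9.71 CPM, 5.84 to 15.2) and Rbbp4 (63.4 CPM, 52.7 to 75.5), and it was the lowest cluster for 32.1% of all 8653 genes, the highest share of the 7 clusters. Within counting error Ezh2 was as low in cluster 2 and Mtf2 in cluster 1 as in cluster 4, and Rbbp7 was lowest in cluster 3. Eed kept to 22.1 to 31.6 CPM over the 7 clusters. The ratio of Ezh2 to Ezh1 was 0.429 (0.316 to 0.575) in cluster 2, 0.669 in cluster 1 and 0.890 in cluster 5, with cluster 3 between these, and was 1.14 (0.670 to 1.94) in cluster 4. It was 2.02 (1.37 to 3.04) in cluster 6 and 3.09 (1.89 to 5.25) in cluster 7, the only clusters in which the interval lay above 1.

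**Figure D4:**
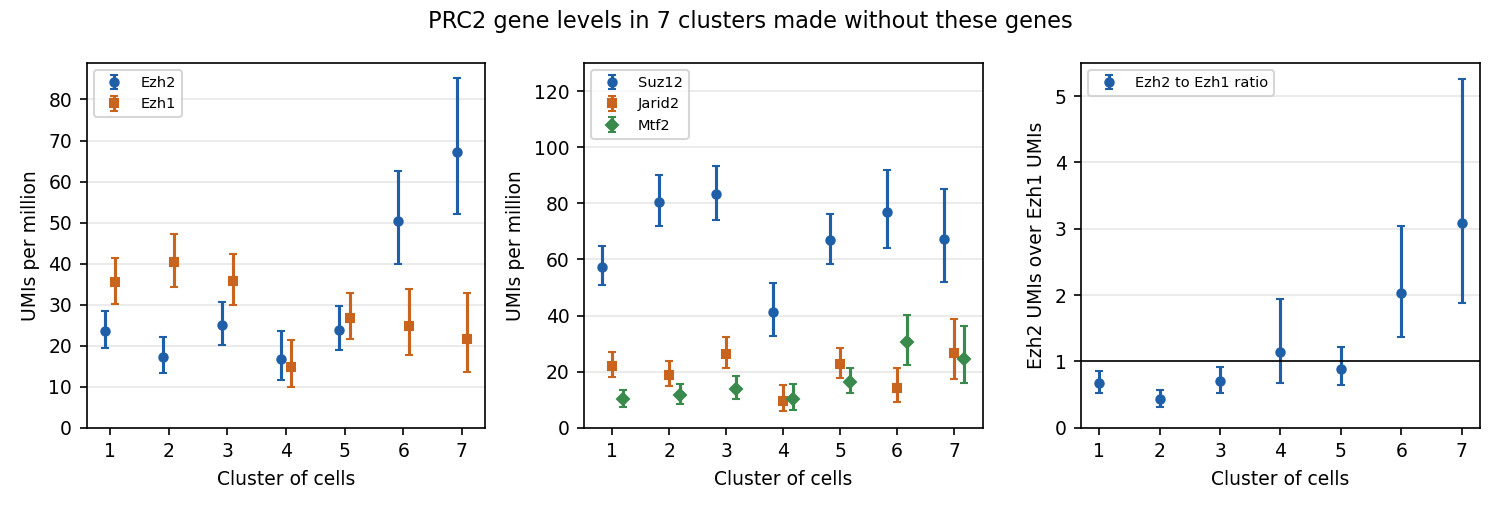
Levels in CPM of Ezh2 and Ezh1 (left) and of Suz12, Jarid2 and Mtf2 (middle), and the ratio of Ezh2 to Ezh1 (right), in 7 clusters, with 95% intervals for counting error. Ezh2 lies well above Ezh1 in clusters 6 and 7, and Ezh1, Suz12 and Jarid2 have their minimum in cluster 4.

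No member differed beyond its interval between cells with and without a transcript of the mature surface lining. Pit cells are the mucus-secreting cells of the gastric surface, marked here by Muc5ac, Tff1, Gkn1, Gkn2, Muc1 and Krt20, and 1036 cells had a thinned UMI of this list against 799 with none. All 8 members had ratios between 0.937 (Ezh1, 0.798 to 1.10) and 1.08 (Jarid2, 0.889 to 1.32), each with an interval that held 1, and Ezh2 had 1.04 (0.874 to 1.24). None was called, beside 0.682% of all genes higher and 0.324% lower, so few genes of any kind differed between these groups. Among cells with few cell cycle UMIs the ratio of Ezh2 was 1.05 (0.814 to 1.35) and that of Ezh1 0.860 (0.698 to 1.06). For Ezh2 the intervals of this split leave out a difference of 1.5-fold in either direction. Other settings moved Ezh1, to 1.33 (1.08 to 1.65) after thinning to 5000 UMIs, and Eed, to 1.24 (1.02 to 1.51) with a split at the median, so the value of Ezh1 turned with the thinning depth. A single UMI can come from free RNA: Tff1 had exactly 1 UMI in 610 cells and up to 2441 in a cell, and how far this sorted the groups was not tested. In the 163 cells with at least 3 thinned UMIs of the list, a grouping chosen after seeing the data, against the same 799, Ezh2 was at 0.896 (0.610 to 1.28) and Ezh1 at 0.855 (0.604 to 1.18). Again no member with at least 100 UMIs was called, beside 4.59% of all genes higher and 5.78% lower, and these wider intervals do not leave out a 1.5-fold decrease. Cluster 7 made up 7.98% of the 163 cells and 2.38% of the 799. Without it Ezh2 was at 0.771 (0.483 to 1.18) and Ezh1 at 0.916 (0.638 to 1.28), and no member was called, beside 4.36% higher and 6.73% lower.

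Summed levels of single pit genes differed between cells with and without a catalytic gene, but a few cells held most of the UMIs of Tff1 and Gkn1. Of 6172 Tff1 UMIs 39.5% were in 1 cell, and of 1425 Gkn1 UMIs 66.2% were in 21 cells, so that the counting intervals of these genes are too narrow. Tff1, a secreted peptide that protects the lining, was 0.249 times (0.209 to 0.295) as high in thinned cells with an Ezh2 UMI as in those without, and 0.282 times (0.239 to 0.331) with an Ezh1 UMI. Without cluster 7 these values were 0.874 (0.726 to 1.05) and 0.905 (0.762 to 1.07). Gkn1, a gastrokine of surface cells, was at 0.377 (0.243 to 0.561) with Ezh2 and 0.561 (0.401 to 0.766) with Ezh1 without the cluster. When the cells with 3 or more Gkn1 UMIs were also left out, these values were 0.722 (0.462 to 1.08) and 1.02 (0.715 to 1.42). The share of thinned cells with a Gkn1 UMI was 7.09% (3.29 to 13.0) with and 9.17% (7.82 to 10.7) without an Ezh2 UMI, cluster 7 left out, so a difference in Gkn1 was not shown beyond these few cells. Muc1, a membrane mucin, had values of 1.04 (0.915 to 1.18) and 0.973 (0.853 to 1.11) over all cells.

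Genes of the gland cells were too rare to say much. A UMI of the mucous neck list (Muc6, Tff2 and Gkn3) was found in 91 thinned cells, of which 27.5% were in cluster 7. Cluster 7 was also rich in cell cycle transcripts, and their part in the values below was not tested. In these 91 cells Ezh2 was 1.64 times (1.18 to 2.23) and Ezh1 0.581 times (0.352 to 0.905) the level of the other 1744 cells. Mtf2 was the other member called higher (1.58, 0.995 to 2.40), beside 9.80% of genes called higher and 8.90% lower. Without cluster 7, in 66 cells against 1708, Ezh2 was at 1.246 (0.743 to 1.97), Ezh1 at 0.684 (0.372 to 1.16) and Mtf2 at 1.36 (0.695 to 2.42), and no member was called, beside 7.36% of all genes higher and 12.8% lower. The chief cell list was seen in 12 cells, 41.7% of them in cluster 7, with 6 Ezh2 UMIs. Rbbp7 (1.93 times, 1.26 to 2.85) and Jarid2 (1.90 times, 0.758 to 3.94) were called higher there, beside 20.9% of all genes higher and 26.6% lower. Without cluster 7 only 7 of these cells were left, with 12 Rbbp7 and 4 Jarid2 UMIs, and no value is read from them. Of parietal genes, Atp4b had no UMI and Atp4a had 29 UMIs in 27 cells. Of 6 endocrine genes, Ghrl had 3 UMIs, Chgb 2 and Gast 1, and Chga, Sst and Neurog3 had none.

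A list of stem genes (Lgr5, Axin2, Sox9, Lrig1 and Tnfrsf19) went with higher Jarid2 (1.31, 1.07 to 1.61) and Rbbp7 (1.20, 1.07 to 1.33) in 507 cells against 1328, both under the fold, which 1.42% of all genes passed upward. Without cluster 7 the values were 1.30 (1.05 to 1.60) and 1.15 (1.03 to 1.29), and 1.57% of all genes passed.

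Few genes of the other Polycomb machinery were called by cell cycle list, at counts near those of all genes. Of 17 PRC1 genes with enough UMIs, none was called between S-high and S-low cells, beside 5.47% of all genes, and 2 were called higher with G2/M genes, Phc1 (1.75 times) and Pcgf2 (1.63 times), beside 8.01%. So small a list cannot be told from the background by such counts. No other PRC2 accessory gene of 4 and neither demethylase gene was called with either list. Of 13 genes whose proteins pair with Rbbp4 and Rbbp7 in other complexes, Chaf1b, a chromatin assembly factor that is itself in the S phase list, was called in both comparisons, and Mta3 with G2/M genes (1.63 times, 1.11 to 2.42). The median ratios for S phase genes were 1.11 over PRC1 genes and 1.15 over the Rbbp partners, against 1.07 over all genes.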

How the data were processed

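RNA was measured in 1 wild type mouse gastric organoid sample as 10x Genomics 3′ single-cell counts. The authors deposited UMI counts per gene and barcode, with 12 multiplexing tags in the same matrix. They were made with Cell Ranger 6.1.2 on GRCm38 (mm10), per the submitters' processing notes. Barcodes with fewer than 500 genes (76) or more than 20% mitochondrial UMIs (73) were left out, 50 of them on both grounds, which kept 1892 of 1991 cells with 890 to 47183 UMIs. Scrublet in scanpy 1.11.5 called 12 cells (0.634%) doublets, and they were kept.

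Counts were summed over cells and given as CPM with exact Poisson intervals, shares with Clopper-Pearson intervals, and ratios with exact conditional binomial intervals. All are 95% intervals that cover counting error only. Cells are not replicates, so no p-value is given. For groups by gene list, each cell was thinned to 3000 UMIs with a fixed seed, cells at or above the upper quartile were set against those at or below the lower one, and levels were then taken from all their UMIs. For the pit, neck, chief and stem lists this was cells with against cells without a UMI. The grouping for neck and chief was chosen after seeing the data, since both quartiles were 0. A gene was called at a ratio of 1.5 in either direction among genes with at least 100 UMIs. Cells were clustered (Leiden, leidenalg 0.10.2, resolution 0.6) on 2000 variable genes and 30 components, leaving out members and cell cycle, sex-linked and mitochondrial genes. The interval code was tested on simulated data.

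Named genes were the members, the genes of the lists with the highest ratios, and for each member the genes with the highest correlation (10 for Ezh2 and 3 for the others). Results that need certain items, a comparison by one gene list and one of these correlations, are not reported here. The members and lists were chosen with earlier results of these data known. Alternatives covered the cell filter, doublets, thinning depth, grouping, tags, clustering and leaving out cluster 7.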

Additional observations from a re-analysis of the deposited data

Results flagged for a closer look

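The matrix holds tag counts that no comparison of the series' labels uses. CMO301 was the highest tag in 55.7% of the 1991 barcodes and CMO302 in 44.3%, and no other of the 12 tags led a barcode. The labels do not say which suspension or animal each tag marks, so whether the tag groups match groups of the study is not known. Ezh2 had 28.4 CPM in the kept cells of CMO301 and 23.9 CPM in those of CMO302, and Ezh1 had 29.2 and 34.2 CPM.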

How the results depend on the processing

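In 300 values from 25 alternative settings of 33 results, no ratio whose main interval left out 1 crossed 1. Results whose main interval held 1, cluster levels and shares of genes could not be counted as turned. Among these, Ezh1 by S phase genes went from 1.10 to 0.833 (0.710 to 0.977) after thinning to 2000 UMIs. By pit genes Ezh1 went from 0.937 to 1.33 (1.08 to 1.65) after thinning to 5000 UMIs. The ratio of Ezh2 to Ezh1 was 0.972 in the cells of CMO301 and 0.699 in those of CMO302. The ratio of core to accessory levels was 2.49 with the other accessory genes added, an alternative chosen after seeing the data. The Ezh2 ratio for S phase genes was 1.36 in the cells of CMO302, 1.23 after thinning to 2000 UMIs and 1.31 between phase calls without cluster 7, and its interval lay above 1 in 9 of 11 settings. The Ezh2 ratio for G2/M genes was 2.29 between phase calls. Its interval lay above 1 in 12 of 12 settings, which share cells and list genes. The cause was not tested in any of these. The share of genes past the fold for S phase genes, in either direction, was 6.02%, and it was 9.31% with genes of at least 50 UMIs, 3.49% with at least 200, 20.7% at the lower fold tried and 1.99% at 2 times. For G2/M genes it was 8.73%, and 5.76%, 27.2% and 2.61% for the last 3 of these settings. The values by tag, by phase call and by gland or stem genes without cluster 7, the Gkn1 values without its highest cells, those of cells with an Ezh2 or Ezh1 UMI and those of cells with at least 3 pit UMIs were also chosen after seeing the data. No paired analysis was possible because all cells are from a single library. Phf19, with 3 UMIs, was too shallow for any comparison, and depth limited the share of cells in which 2 members could be seen together.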
